A study of Homo sapiens and Mus musculus with 8 samples.

Results

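The genes described here are 10 transcriptional outputs and feedback regulators of the kinase ERK, namely DUSP4, DUSP5, DUSP6, SPRY2, SPRY4, SPRED1, SPRED2, ETV4, ETV5 and EGR1, read in human K562 cells, and their 10 mouse counterparts, read in BaF3-T315I cells. They were picked by name, as a transcript readout of ERK activity. All 10 human genes were found among the 35141 genes of the K562 table, and all 10 mouse identifiers among the 22457 of the BaF3-T315I table. K562 is a human chronic myeloid leukemia (CML) line that carries native BCR-ABL, and BaF3-T315I is a line of murine hematopoietic BaF3 cells into which p210 BCR-ABL with the T315I mutation was introduced by a retroviral vector. Cells of each line were treated with control, as the sample titles put it, or with 2 μM of JOA for 48 h. JOA is Jiyuan oridonin A, an ent-kaurene diterpenoid. Each of the 4 groups had 2 libraries of mRNA, 8 in all, and the sources do not say whether they came from separate cultures, so every p-value measures only the spread between these libraries.

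ERK is the last kinase of the RAS, RAF and MEK chain, which BCR-ABL switches on through adaptor proteins. Active ERK enters the nucleus and induces genes of transcription factors, among them EGR1, ETV4 and ETV5. It also induces its own brakes. DUSP4 and DUSP6 encode phosphatases that take the activating phosphates off ERK in the nucleus and in the cytoplasm, DUSP5 encodes a nuclear phosphatase that binds ERK, and the Sprouty and SPRED proteins act upstream, between the receptors and RAF. Since these transcripts follow ERK activity, they are widely used to read it from RNA. The present data hold the transcripts only, and no measurement of ERK itself.

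The values are FPKM (fragments per kilobase of transcript, scaled to the depth of the library), so levels of different genes within a table can be compared. The 2 tables are of different species and were normalized separately, and values of the lines are set side by side with no test between them. SE below is the standard error of the fit, and SD the spread of the libraries. Fold changes are given on the log2(FPKM + 0.5) scale, JOA minus control, which understates the change of genes with low values. A gene was tested with limma, a moderated linear model fitted to the whole table, if its mean was at least 0.5 FPKM, and counted as called when its adjusted p (Benjamini-Hochberg, over the whole table) was under 0.05 and its log2 fold change was 0.58 or more in size. An exact permutation test of 2 against 2 libraries could not go below p = 0.333 (two-sided). The median log2 fold change of all genes tested was 0.096 for K562 and -0.11 for BaF3-T315I, and the members are read against it.

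K562 identity was checked on 11 erythroid and megakaryocytic markers, all of which passed the minimum. Of these, 9 had both JOA values under both control values, as 18.3% of all genes tested did, 7 were lower at an unadjusted p under 0.05 with the fold threshold given above, as 2.38% of all genes were, and the summed level of the 11 went from 1960 and 1858 FPKM in the controls to 1118 and 850.0 FPKM with JOA. Of markers of other cells, KRT8, KRT19 and EPCAM of epithelium were present in all K562 libraries, at a summed level of 118 to 139 FPKM, the 3 monocyte markers summed to 16.5 to 30.1 FPKM, nearly all of it LYZ, and the T cell, B cell, granulocyte and fibroblast lists to at most 10.5 FPKM each, with MS4A1 of B cells at 0 in all of them. Among the 11 K562 markers, the fall did not extend to ITGA2B of megakaryocytes or to TAL1. ITGA2B had 5.35 and 6.03 FPKM in the controls and 6.66 and 8.55 FPKM with JOA, a log2 fold change of 0.38. TAL1 overlapped, with a log2 fold change of 0.0031. In the controls, HBG2 (mean 876.4 FPKM) and HBG1 (376.1 FPKM) were the largest parts of the sum. The part of all these marker shifts in the values below was not tested. In RNA of whole cultures, fewer cells of a type and less RNA per cell cannot be told apart. The mouse identifiers carry no names in the table or the references used here beyond the 10 members, so the markers of BaF3-T315I cells were not checked.

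The promoters of 3 human members are shown because they differ in the elements through which ERK is known to reach its target genes. In each, capitals mark every match, on either strand, to the CArG box bound by SRF with its ERK-activated ETS partners, to the ETS core CGGAAG or to the AP-1 site TGANTCA, and the windows run from 250 bases before to 50 after the RefSeq start on GRCh38.p14. EGR1 lies at chr5:138465229-138465528 (plus strand), DUSP6 at chr12:89352452-89352751 (minus strand) and SPRY4 at chr5:142324198-142324497 (minus strand).
EGR1: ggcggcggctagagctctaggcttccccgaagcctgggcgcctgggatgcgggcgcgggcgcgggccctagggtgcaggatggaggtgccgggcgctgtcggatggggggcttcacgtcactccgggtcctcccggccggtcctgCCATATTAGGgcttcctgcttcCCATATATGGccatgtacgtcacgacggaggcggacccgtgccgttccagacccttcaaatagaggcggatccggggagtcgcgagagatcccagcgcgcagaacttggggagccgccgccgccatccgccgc
DUSP6: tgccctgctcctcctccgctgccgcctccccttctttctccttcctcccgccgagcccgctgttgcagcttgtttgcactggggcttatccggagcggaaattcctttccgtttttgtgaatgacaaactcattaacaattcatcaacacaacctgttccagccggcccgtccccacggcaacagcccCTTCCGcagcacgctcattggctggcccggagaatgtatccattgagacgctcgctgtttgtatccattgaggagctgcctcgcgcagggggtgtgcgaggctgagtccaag
SPRY4: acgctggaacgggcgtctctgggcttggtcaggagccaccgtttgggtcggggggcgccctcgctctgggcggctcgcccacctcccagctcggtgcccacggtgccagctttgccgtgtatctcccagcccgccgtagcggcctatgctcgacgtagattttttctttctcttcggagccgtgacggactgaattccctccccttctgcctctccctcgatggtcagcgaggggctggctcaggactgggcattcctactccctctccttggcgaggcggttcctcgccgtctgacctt

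The EGR1 window held 2 CArG boxes, which begin 105 and 83 bases before the start. Of all 35116 windows of the reference, 1.29% held at least 1 CArG box and 11 windows (0.0313%) held at least 2. The RefSeq starts of DUSP6 and SPRY4 lie inside the longer GENCODE genes. The DUSP6 window held 1 ETS core, 62 bases before the start, as did 19.5% of all windows (at least 1), and the SPRY4 window held none of the elements. Reference windows were read for 6 members, 9 windows in all, with more than 1 start for SPRY2 and SPRED2. SPRED2 had an ETS core 38 bases after 1 of its starts and 2 AP-1 sites at the other. Of all windows, 7.71% held at least 1 AP-1 site and 0.515% held at least 2. SPRY2 and SPRED1 had no match. DUSP4, DUSP5, ETV4 and ETV5 were not read. A match is a description of the letters and not of a bound site.

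The order of the levels differed between the lines. In K562 controls the order ran from EGR1 (35.9 FPKM, mean of 2) through ETV4 (14.3), SPRED2 (14.1), SPRED1 (4.59), ETV5 (3.91), SPRY4 (3.64), SPRY2 (3.41) and DUSP5 (1.53) down to DUSP4 (0.0626) and DUSP6 (0.0326). ETV4 and SPRED2 overlapped in that order, as did ETV5 with SPRY4 and SPRY4 with SPRY2, while the other neighbours were separate in these 2 libraries. In BaF3-T315I controls Dusp6 (107 FPKM) and Dusp4 (104) led and overlapped, followed by Spred1 (54.7), Etv5 (17.7) and Spred2 (15.7). Dusp5 (3.18), Spry4 (2.84) and Spry2 (2.70) came next and overlapped in turn, and Etv4 (0.252) and Egr1 (0.246) were last and overlapped. The pair of phosphatase genes at the top in the mouse line was thus at the bottom in K562 cells, and EGR1, first in K562 cells, was last there together with Etv4. With JOA, EGR1 stood behind ETV4 and SPRED2 in K562 cells, and Spry4 behind Spry2 in BaF3-T315I cells without overlap.

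**Figure D1:**
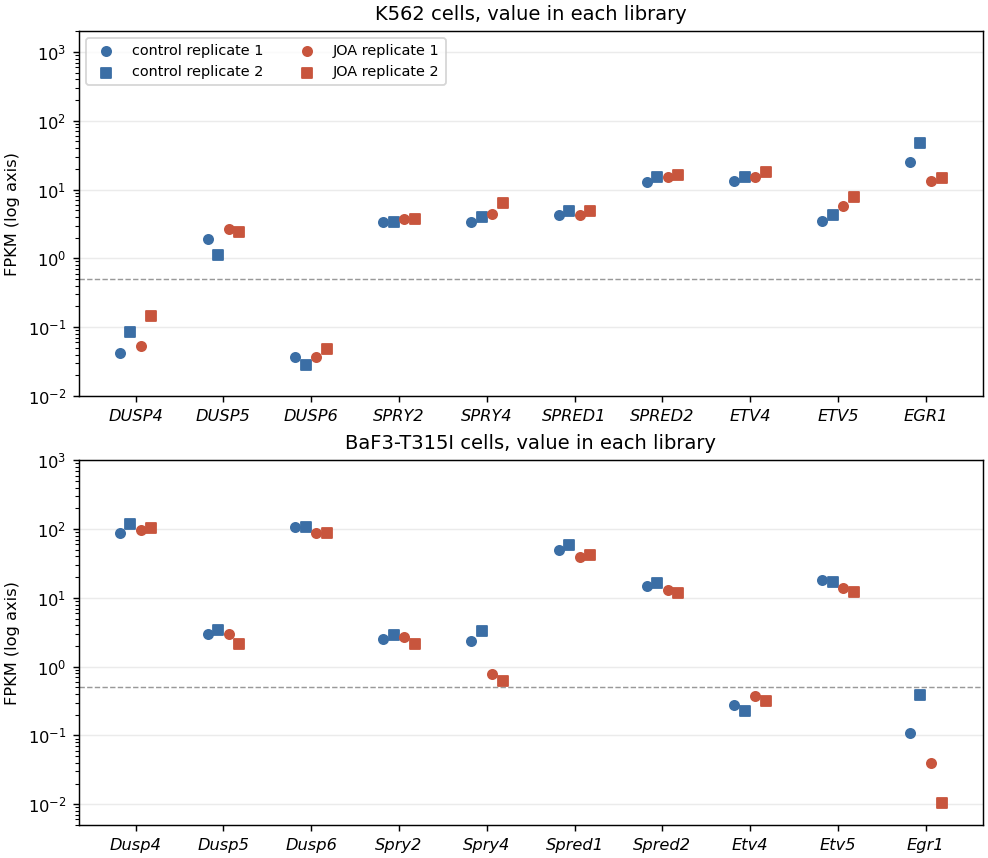
FPKM of the 10 genes in each library of K562 cells (top) and BaF3-T315I cells (bottom) on a log axis, with controls in blue, JOA in red, circles for replicate 1 and squares for replicate 2. The dashed line is the minimum mean of 0.5 FPKM, under which lie DUSP4 and DUSP6 in K562 cells and Etv4 and Egr1 in BaF3-T315I cells.

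In BaF3-T315I cells, Spry4 fell with JOA, and it was the only called gene among the 8 mouse members tested. Of all 12872 genes tested in this line, 15.2% were called lower and 9.38% higher. Spry4 (ENSMUSG00000024427), a Sprouty inhibitor of the route from receptors to ERK, had 2.37 and 3.31 FPKM in the controls and 0.780 and 0.616 FPKM with JOA. Both JOA values were well under both controls. The means were 2.84 ± 0.668 and 0.698 ± 0.116 FPKM (SD, n = 2 libraries each), 4.07-fold lower with JOA, and the log2 fold change was -1.47 (SE 0.21, limma adjusted p = 0.0104). Relative to the median gene it was -1.36. Without control replicate 1 the log2 fold change was -1.67 (limma adjusted p = 0.0540) and without control replicate 2 it was -1.26 (adjusted p = 0.0915), so the call ended although the direction did not turn. The other Sprouty gene, Spry2 (ENSMUSG00000022114), had 2.55 and 2.86 FPKM in the controls and 2.69 and 2.16 FPKM with JOA, which overlap, with a log2 fold change of -0.14 (95% interval -0.53 to 0.26) that ran from -0.27 to -0.0035 when single libraries were left out.

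The ERK phosphatase genes of the mouse line differed among themselves. Dusp6 (ENSMUSG00000019960), the cytoplasmic ERK phosphatase, had 107.1 and 107.5 FPKM in the controls and 88.2 and 87.2 FPKM with JOA. The libraries of each group were close to each other and the groups were separate. Its log2 fold change was -0.29 (SE 0.09, limma adjusted p = 0.0609), a 1.22-fold lower mean, and -0.18 relative to the median gene. Dusp4 (ENSMUSG00000031530), the nuclear phosphatase at a like level, had 88.0 and 119.8 FPKM in the controls and 96.0 and 102.5 FPKM with JOA. Both JOA values lay between the controls, and the log2 fold change was -0.05 (95% interval -0.49 to 0.39). Dusp5 (ENSMUSG00000034765) had 2.98 and 3.37 FPKM in the controls and 2.98 and 2.14 FPKM with JOA, a log2 fold change of -0.28 (95% interval -0.74 to 0.19), with JOA replicate 1 level with control replicate 1. Leaving out JOA replicate 2 gave -0.08, and leaving out JOA replicate 1 gave -0.48.

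Both Spred genes, whose proteins hold back RAF activation with the help of neurofibromin, had lower values in both JOA libraries of BaF3-T315I cells. So did 44.5% of all genes tested in this line, and neither Spred gene was called. Spred1 (ENSMUSG00000027351) had 50.2 and 59.3 FPKM in the controls and 38.9 and 42.4 FPKM with JOA, a log2 fold change of -0.42 (SE 0.12, limma adjusted p = 0.0527). Spred2 (ENSMUSG00000045671) had 14.7 and 16.7 FPKM in the controls and 13.0 and 11.6 FPKM with JOA, a log2 fold change of -0.34 (SE 0.12, limma adjusted p = 0.0826). The groups did not overlap for either gene. The same held for the ETS factor gene Etv5 (ENSMUSG00000013089), with 18.5 and 16.9 FPKM in the controls and 13.8 and 12.0 FPKM with JOA. Its adjusted p from limma was 0.0405, but its log2 fold change of -0.44 (SE 0.11) did not reach the fold threshold. With median-ratio scaling the log2 fold changes of Spred1, Spred2 and Etv5 were -0.30, -0.22 and -0.32. With TPM scaling they were -0.49, -0.41 and -0.52. Relative to the median gene, the main fit gave -0.31, -0.23 and -0.33. The adjusted p of Etv5 from limma was 0.0698 with median-ratio scaling and 0.0189 with TPM scaling.

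The other transcription factor genes of the mouse line were under the minimum, and were tested only in the fit with no filter on low values, where their adjusted p from limma was 0.446 for Etv4 and 0.228 for Egr1. Etv4 (ENSMUSG00000017724) had 0.280 and 0.225 FPKM in the controls and 0.379 and 0.313 FPKM with JOA. It was the only mouse member with both JOA values above both controls. Egr1 (ENSMUSG00000038418) had 0.109 and 0.384 FPKM in the controls and 0.0404 and 0.0103 FPKM with JOA, so both JOA values were under both controls, which themselves differed 3.53-fold. Its values fall on steps of 9 and 37 in the controls and 4 and 1 with JOA, which are reads or a common multiple of reads, so the lowest value may rest on a single read. Over the 10 mouse genes, the JOA libraries were both below the controls for 6, both above for 1 and overlapped for 3. Among the 8 tested, 5 were below and 0 above, where 44.5% of all genes tested were below and 28.5% above. The median log2 fold change of the 8 was -0.31, beside -0.11 for all genes tested.

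In K562 cells, EGR1 and ETV5 were the members with the largest fold changes, in opposite directions, and limma called none of the 8 members tested. It called 0.0% of all 15635 genes tested, with a smallest adjusted p of 0.171. At an unadjusted p under 0.05 with the fold threshold, 5.38% of all genes were higher and 2.38% lower, and of the members DUSP5 and ETV5 were higher and EGR1 was lower. DUSP5 stayed past this limit in 4 of the 14 alternatives, whereas ETV5 did in 12 and EGR1 in 12. On recovered reads, limma with voom weights called 0 of the 7 members it covers and 1 of all 15127 genes.

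EGR1 (ENSG00000120738, chromosome 5 of GRCh38 from 138465490 to 138469315), an immediate early zinc finger factor, had 25.0 and 46.8 FPKM in the controls and 13.3 and 14.8 FPKM with JOA. These are 1830 and 3376 reads in the controls and 966 and 1050 with JOA. The JOA libraries were close to each other and below both controls, whereas the controls differed 1.87-fold. The means were 35.9 ± 15.4 and 14.1 ± 1.04 FPKM (SD, n = 2 each), 2.55-fold lower with JOA. The log2 fold change was -1.26 (SE 0.30, limma adjusted p = 0.240), and -1.35 relative to the median gene. Without control replicate 2, the highest library, it was -0.81. EGR1 was the only human member with a negative log2 fold change. SPRED1 joined it with median-ratio scaling, and SPRED1 and SPRY2 did with quantile normalization.

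ETV5 (ENSG00000244405, chromosome 3 from 186046308 to 186110318), an ETS factor of the PEA3 group, had 3.51 and 4.31 FPKM in the controls and 5.85 and 7.67 FPKM with JOA, or 474, 575, 785 and 1007 reads. Both JOA values were above both controls. The log2 fold change was 0.72 (SE 0.18, limma adjusted p = 0.246) and ran from 0.53 to 0.90 with 1 library left out. Relative to the median gene it was 0.62. ETV5 overlaps DGKG on its own strand and ETV5-AS1 on the other, so its reads may not be separate from theirs. The paralog ETV4 (ENSG00000175832) had 13.4 and 15.15 FPKM in the controls and 15.15 and 18.1 FPKM with JOA, a log2 fold change of 0.21 (95% interval -0.15 to 0.56) that ran from 0.084 to 0.33 when single libraries were left out. Control replicate 2 and JOA replicate 1 held 1257 and 1263 reads, so the groups of ETV4 barely missed overlap, and ETV4 overlaps DHX8 on the other strand.

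Among the ERK phosphatase genes of K562 cells, DUSP5 alone was at a level that could be tested. DUSP5 (ENSG00000138166, chromosome 10 from 110497838 to 110511544) had 1.92 and 1.13 FPKM in the controls and 2.65 and 2.43 FPKM with JOA, or 117, 68, 160 and 144 reads. The JOA libraries were above both controls, with a log2 fold change of 0.61 (SE 0.24, limma adjusted p = 0.289). Without control replicate 2, the lowest library, it was 0.33. DUSP6 (ENSG00000139318) had 4 and 3 reads in the controls and 4 and 5 with JOA, between 0.0281 and 0.0477 FPKM, close to the 0.0278 to 0.0286 FPKM that 3 reads give. DUSP4 (ENSG00000120875) had 7 and 14 reads in the controls and 9 and 24 with JOA, between 0.0414 and 0.146 FPKM. Both were under the minimum. In the fit with no filter on low values their adjusted p from limma was 0.741 for DUSP4 and 0.631 for DUSP6, and reads this few leave wide room for a difference.

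The Sprouty and SPRED genes of K562 cells had log2 fold changes between 0.01 and 0.50. SPRY4 (ENSG00000187678, chromosome 5 from 142310427 to 142326455) had 3.35 and 3.93 FPKM in the controls and 4.36 and 6.47 FPKM with JOA, with JOA replicate 2 the highest. Its log2 fold change was 0.50 (95% interval -0.06 to 1.05, limma adjusted p = 0.315), and 0.23 without JOA replicate 2. SPRY4 overlaps the antisense gene SPRY4-AS1, and since no source gives the strand setting of the counting, reads of the 2 genes may not be separate. SPRY2 (ENSG00000136158) had 3.41 and 3.42 FPKM in the controls and 3.70 and 3.75 FPKM with JOA, a narrow separation with a log2 fold change of 0.11 (95% interval -0.20 to 0.42), or 0.016 relative to the median gene. SPRED2 (ENSG00000198369) had 12.9 and 15.3 FPKM in the controls and 15.5 and 16.1 FPKM with JOA, a log2 fold change of 0.16 (95% interval -0.16 to 0.48), which was 0.046 without control replicate 1 and 0.058 with median-ratio scaling. SPRED1 (ENSG00000166068) overlapped, with 4.31 and 4.86 FPKM in the controls and 4.32 and 4.93 FPKM with JOA, a log2 fold change of 0.01 (95% interval -0.34 to 0.36).

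Over the 8 human members tested, the JOA libraries were both above the controls for 6 and both below for 1, where 36.8% of all genes tested were above and 18.3% below. With median-ratio scaling 4 members were above and 1 below, beside 4120 and 4258 of all 15635 genes, and with quantile normalization 2 and 2, beside 4030 and 3947 of all genes. The median log2 fold change of the 8 was 0.18, beside 0.096 for all genes tested. It was 0.12 without control replicate 1, 0.28 without control replicate 2 and 0.082 with median-ratio scaling.

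**Figure D2:**
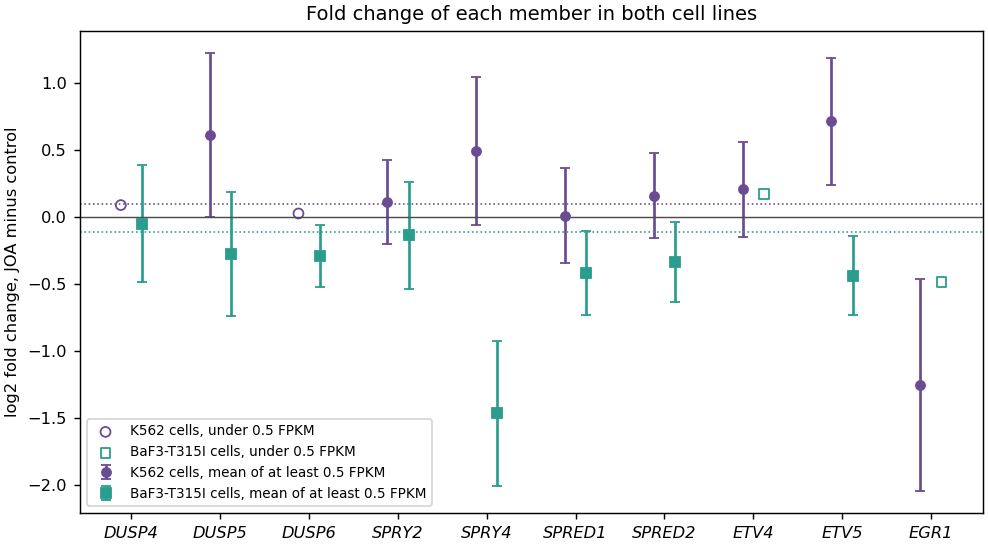
Log2 fold change of each gene, JOA minus control, in K562 cells (circles) and of its mouse counterpart in BaF3-T315I cells (squares). Bars are 95% intervals from limma, open symbols were under the minimum of 0.5 FPKM, and dotted lines mark the median of all genes tested in each line (0.096 and -0.11). The interval of Spry4 in BaF3-T315I cells runs from -2.01 to -0.93.

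Side by side, 6 genes could be tested in both lines, DUSP5, SPRY2, SPRY4, SPRED1, SPRED2 and ETV5. All 6 had a positive log2 fold change in K562 cells and a negative one in BaF3-T315I cells, although SPRED1 was at 0.01 in K562 cells and turned negative there with median-ratio scaling, as SPRED1 and SPRY2 did with quantile normalization. For comparison, 62.3% of all genes tested had a positive log2 fold change in K562 cells, and 41.9% did in the mouse line. The groups were separate in both lines and in opposite directions for 3 of the 6, SPRY4, SPRED2 and ETV5. Of all genes tested, 36.8% were above in K562 cells and 44.5% below in the mouse line, and a joint share was not computed. EGR1 differed from SPRY4, SPRED2 and ETV5. In each line both JOA values were below both controls, though in the mouse line its level was under the minimum.

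Other genes of the pathway were read in K562 cells from lists of human symbols. limma called 0 of the 66 tested on the 5 lists over all genes, and the counts below are at an unadjusted p under 0.05 with the fold threshold. At that limit, 5.38% of all K562 genes tested were higher and 2.38% lower. Of 6 other MAP kinase phosphatases tested, 1 was higher and 0 lower. This was DUSP10, which prefers p38 and JNK, with 1.49 and 2.79 FPKM in the controls and 4.38 and 5.49 FPKM with JOA, a log2 fold change of 1.08. DUSP7, a cytoplasmic ERK phosphatase, had a log2 fold change of -0.30, and DUSP9, the most abundant of the list (10.5 FPKM), one of -0.12. Of the other Sprouty and SPRED genes SPRY1 alone passed the minimum (log2 fold change -0.05).

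Of 18 tested ETS, EGR and immediate early genes, 1 was higher and 1 lower, beside 5.38% and 2.38% of all genes tested. JUNB, an AP-1 subunit, had 25.2 and 19.9 FPKM in the controls and 11.9 and 15.9 FPKM with JOA, a log2 fold change of -0.68. ELK3, an ETS factor of the SRF complex, had 2.55 and 2.36 FPKM in the controls and 4.67 and 3.68 FPKM with JOA, a log2 fold change of 0.66. MYC, the most abundant of the list (109 FPKM), had a log2 fold change of -0.54, and EGR2 and EGR3, the relatives of EGR1, were under the minimum. Of 16 further transcripts that follow ERK activity, 1 was higher and 1 lower. The lower one was the polyamine enzyme gene ODC1, with a log2 fold change of -0.64. That of the EGFR feedback inhibitor gene ERRFI1 was 0.57, and that of the chromatin protein gene HMGA1, the most abundant (648 FPKM), was -0.47. The 25 genes of the cascade from BCR and ABL1 to ERK held 0 past this threshold. Their log2 fold changes ran from -0.29 to 0.62, with 0.49 for the ubiquitin ligase gene CBL and 0.49 for the RAS exchange factor gene SOS2. The list medians were -0.12 for the other phosphatases, 0.16 for the ETS, EGR and immediate early genes, 0.17 for the further transcripts and 0.13 for the cascade, beside 0.096 for all genes tested.

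**Figure D3:**
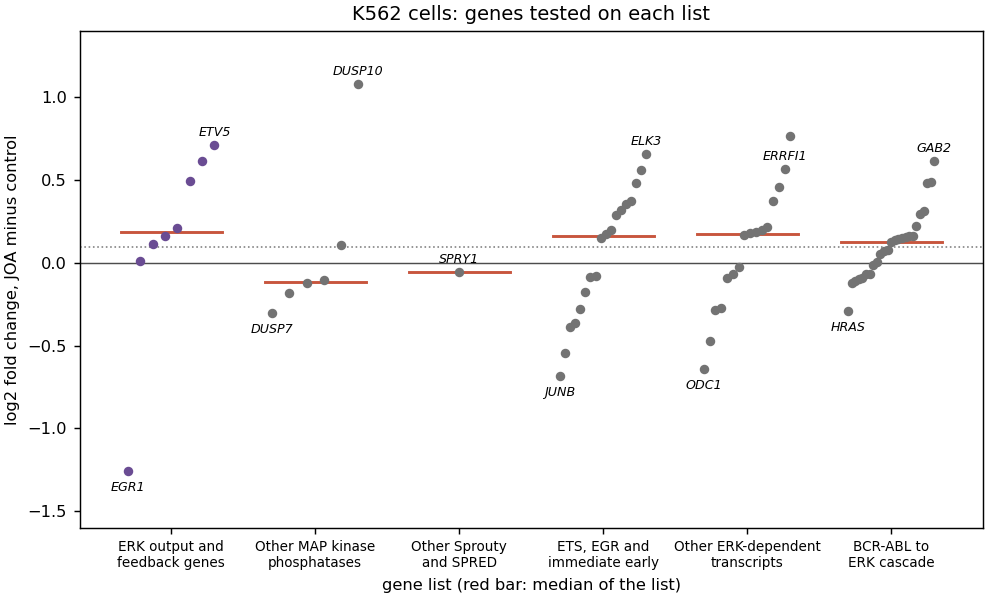
Log2 fold change in K562 cells, JOA minus control, of the genes tested on each list, sorted within the list. Red bars are list medians, the dotted line is the median of all genes tested (0.096), and each list has its highest and lowest value named among genes averaging 1 FPKM or more, such as EGR1 at -1.26 and DUSP10 at 1.08.

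The genes most like ETV5, DUSP5 and EGR1 over the 4 K562 libraries were found by the distance between mean-centred log2 values. SERPINB9, H6PD and AMIGO2 came nearest to ETV5 (distances 0.048, 0.049 and 0.057), and ENSG00000250397, IL18RAP and ENSG00000277978 to DUSP5 (0.10 to 0.11). EGR1 had no neighbour as close, on a distance that is not scaled to the size of a gene's change. NPIPA2, HEPACAM2 and MAGEA8-AS1 were nearest at 0.21, 0.30 and 0.39. Of these, NPIPA2 had only 0.0303 and 0.0619 FPKM with JOA. HEPACAM2 had 12.4 and 20.3 FPKM in the controls and 6.20 and 8.51 FPKM with JOA.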

How the data were processed

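The mRNA of K562 and BaF3-T315I cells was sequenced from TruSeq Stranded mRNA libraries. The deposited values are FPKM, made by the authors, and the processing notes of the submitters list HTSeq, Cufflinks, HISAT2 and Trimmomatic, with no versions or roles, and hg38 and mm10 as builds. The annotation release and strand setting are not given in the sources used here. The columns summed to between 279624 and 348007, unlike the TPM that the paper's methods name, which has a fixed sum. Human symbols came from a table of gene names (98.9% of identifiers) and positions and exon lengths from GENCODE 29 on GRCh38, and the mouse names from the list that defines the members.

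K562 reads were recovered from FPKM and exon length. The depth was 22625603 to 23292640 reads, and 96.2% to 96.3% of values under 1000 reads came to whole numbers within 0.05. SPRY4 did not. For BaF3-T315I only relative depths could be had (1.16 to 1.20 times control replicate 1 for the other libraries). Reads are not independent molecules, so read numbers cover counting error only.

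Each cell line was fitted separately with limma 3.58.1 (R 4.3.3) to log2(FPKM + 0.5), over genes whose mean was 0.5 FPKM or more (variance trend, no covariate, two-sided, Benjamini-Hochberg over all genes tested). The fit was tested on simulated data. Alternatives were the pseudocount (0.1 and 1), the minimum mean (none and 1), TPM, median-ratio and quantile scaling, no variance trend, the replicate number as a block, each library left out, and voom weights on the recovered reads. Python 3.11.15 with pandas 2.3.3 and matplotlib 3.10.9 served for tables and plots. The members and lists were chosen with earlier results of these data known. All members are named. Of each list, the text names the 2 genes with the largest fold change among those with separate groups and a mean of at least 1 FPKM, and the most abundant gene, where these are reported here. EGR4 and EPHA4 are each on a list, but no identifier among the K562 genes carried either symbol.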

Additional observations from a re-analysis of the deposited data

Results flagged for a closer look

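The log2 fold changes of 3 gene pairs stood out because both JOA libraries lay on one side of both controls in K562 cells and on the other side in BaF3-T315I cells. They were 0.50 for SPRY4 and -1.47 for Spry4, 0.16 for SPRED2 and -0.34 for Spred2, and 0.72 for ETV5 and -0.44 for Etv5. The K562 value of SPRED2 was 0.046 without control replicate 1 and 0.058 with median-ratio scaling. The difference between the lines was not tested, since the tables were normalized separately. Within 1 line such separation is common with 2 libraries a group. Of all genes tested, 36.8% were above in K562 cells and 44.5% below in BaF3-T315I cells. The share of all gene pairs separate in opposite directions was not computed.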

How the results depend on the processing

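Of the 2 groups of members, that of BaF3-T315I cells held 1 call, Spry4, under 11 of 13 alternatives, the replicate block included (1 call). Each fit with 1 library left out keeps a single residual degree of freedom. The call of Spry4 ended without either control and held without either JOA library. Its log2 fold change ran from -1.67 to -1.26 in these BaF3-T315I fits. Of all genes in that line, limma called 1207 higher and 1961 lower, which became 96 and 73 without control replicate 1 and 0 and 0 without control replicate 2. At an unadjusted p under 0.05 with the fold threshold, 1166 genes were higher and 1881 lower there. In K562 cells 0 members were called under all 14 alternatives. The median log2 fold change of the members in BaF3-T315I cells moved from -0.31 to -0.20 with median-ratio scaling, which moved the median of all genes from -0.11 to -0.0020, and TPM scaling moved the latter to -0.18. The K562 median gene moved from 0.096 to 0.20 with TPM scaling. In BaF3-T315I cells 1597 genes were called higher and 1490 lower with median-ratio scaling, 1565 and 1538 with quantile normalization and 1103 and 2462 with TPM scaling. With no filter on low values 37 K562 genes were called higher and 13 lower, none of them a member.

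Directions turned for members near 0. SPRED1 in K562 cells was -0.085 with median-ratio scaling and -0.13 with quantile normalization, and ran from -0.075 to 0.096 with 1 library left out. SPRY2 in K562 cells was -0.027 with quantile normalization. Dusp4 in BaF3-T315I cells was 0.073 with median-ratio scaling and ran from -0.27 to 0.17 with 1 library left out. The cause of these shifts was not tested. The replicate numbers were not taken to pair the samples, since the labels do not say what a number marks and there are 2 pairs a line. The deviations of control replicate 1 and JOA replicate 1 correlated across genes with r = 0.188 for K562 and 0.0121 for BaF3-T315I, and the replicate block left 0 K562 members called, with an adjusted p of 0.0902 from limma for both EGR1 and ETV5. Depth limits DUSP4 and DUSP6 in K562 cells, which rest on few reads. Egr1 and Etv4 in BaF3-T315I cells were under the minimum and may also rest on few reads, though only relative depths could be had there.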
